A study of Mus musculus with 11 samples.

Results

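TGF-beta and BMP signalling was described in mouse lung mesenchyme through 52 genes: ligands, receptors, co-receptors, extracellular antagonists, Smads and direct targets. They were chosen by gene symbol from the read count table, and those with at least 1 CPM (counts scaled to the total of the library) in at least 3 of 11 libraries were reported. All 52 symbols were among the 24411 of the table, and 50 met this rule. The other two were Gdf11, a ligand with at most 3 counts in a library, and Nog, the BMP antagonist noggin, with at most 7. The libraries were made from lung mesenchymal cells of C57BL6 mice after pneumonectomy (PNX), which removes part of the lung so that the remainder regrows, or after sham surgery. Sorting kept the cells without the epithelial marker EpCAM, the leukocyte marker CD45 and the endothelial marker CD31, so the population was defined by what it lacked. The groups were sham at day 7 (3 libraries), PNX at day 7 (3 libraries), sham at day 14 (2 libraries) and PNX at day 14 (3 libraries). No label gave another genotype, allele or agent, an age, or the amount of lung removed. None stated that replicates came from separate animals, so p-values measure the spread between libraries. Counts on 4 Y-linked genes were 2036, 1265 and 0 in sham and 1580, 1026 and 2452 in PNX at day 7. At day 14 they were 0 and 3903 in sham and 2343, 0 and 0 in PNX, so the groups were not balanced in them. Libraries of 1 group with and without such counts did not come from the same animal. Between libraries alike in these counts the spread may be technical.

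Ligands of this family bind pairs of type I and type II serine/threonine kinase receptors, and the type I receptor phosphorylates Smad proteins that enter the nucleus with Smad4. TGF-beta and activin ligands act mainly through Smad2 and Smad3, and BMP ligands through Smad1, Smad5 and Smad9, with the Id genes among the best known BMP targets. In lung mesenchyme TGF-beta signalling is known for driving matrix production and the myofibroblast state, and BMP signalling for exchange with the neighbouring alveolar epithelium and endothelium.

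Total counts were 2539628 to 9008592 per library, and 16011 genes entered the test. The 13 mesenchymal markers summed to 11686 to 31701 CPM per library with none at 0 in any library. The markers of the cells that the gate removes were present too: 18 endothelial markers summed to 247 to 2125 CPM, 16 epithelial markers to 422 to 18126 CPM, and 21 haematopoietic markers to 254 to 2944 CPM. Haematopoietic sums were 2744 and 2944 CPM in sham at day 14 against 1766 to 2398 CPM in PNX at day 14. The 14 pericyte and smooth muscle markers summed to 1642 to 2246 CPM in sham and 2639 to 3492 CPM in PNX at day 14. Their largest part was Acta2 (883 and 1110 against 1417 to 1885 CPM), whereas Cox4i2 was lower after PNX (37.2 and 37.1 against 15.5 to 17.1 CPM). Averaged over these 14 markers, log2(CPM + 1) overlapped, at 5.57 and 5.97 in sham and 5.85 to 6.30 in PNX. The part of haematopoietic, pericyte and smooth muscle RNA in the results at day 14 was not tested. Epithelial sums were 8082 to 18126 CPM in PNX at day 14 against 1121 to 2760 CPM in PNX at day 7. The surfactant gene Sftpc was the largest part of those of day 14 (6803 to 15480 CPM, against 342 to 1525 CPM at day 7). Krt8 went the other way, at 49.6 to 86.9 CPM at day 14 and 90.9 to 167 CPM at day 7. Averaged over the 16 epithelial markers, log2(CPM + 1) was 5.28 to 5.98 at day 14 and 4.15 to 5.15 at day 7. In bulk samples fewer cells of a type and less RNA per cell cannot be told apart. Reads on 1455 olfactory and vomeronasal receptor genes, which lung cells do not normally use, averaged 0.0618 to 1.10 CPM per gene and were highest in replicate 1 of sham at day 14. Next came replicate 2 of PNX at day 7 and replicate 2 of sham at day 7.

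The sequence upstream of 5 members is shown. They were taken from the members whose libraries did not overlap between surgery groups, at day 7 (Nbl1, Gdf10, Inhbb) or day 14 (Tgfb2, Ltbp3). Other such members with a RefSeq window, among them Bmp4, Smad3, Id2 and Bmpr1a, are not shown. Each run is the 250 bases before the start of the gene in RefSeq, build GRCm38.p6, 5′ to 3′ on the strand of the gene, and capitals mark 2 motifs that Smad proteins are known to bind, CAGAC, which reads GTCTG on the other strand, and GGCGC, which reads GCGCC there. The windows are chr4:139092971-139093220 on the minus strand for Nbl1, chr14:33923337-33923586 on the plus strand for Gdf10, chr1:119422249-119422498 on the minus strand for Inhbb, chr1:186705990-186706239 on the minus strand for Tgfb2 and chr19:5740650-5740899 on the plus strand for Ltbp3.
Nbl1: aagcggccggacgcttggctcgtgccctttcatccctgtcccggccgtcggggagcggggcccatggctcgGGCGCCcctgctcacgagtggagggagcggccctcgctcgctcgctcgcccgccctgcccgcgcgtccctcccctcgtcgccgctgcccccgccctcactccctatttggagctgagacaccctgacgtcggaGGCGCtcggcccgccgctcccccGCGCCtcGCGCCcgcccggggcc
Gdf10: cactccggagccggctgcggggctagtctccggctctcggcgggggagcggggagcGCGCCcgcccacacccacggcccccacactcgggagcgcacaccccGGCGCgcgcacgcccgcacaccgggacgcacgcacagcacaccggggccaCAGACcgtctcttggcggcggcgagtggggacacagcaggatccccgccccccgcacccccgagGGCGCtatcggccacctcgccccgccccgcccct
Inhbb: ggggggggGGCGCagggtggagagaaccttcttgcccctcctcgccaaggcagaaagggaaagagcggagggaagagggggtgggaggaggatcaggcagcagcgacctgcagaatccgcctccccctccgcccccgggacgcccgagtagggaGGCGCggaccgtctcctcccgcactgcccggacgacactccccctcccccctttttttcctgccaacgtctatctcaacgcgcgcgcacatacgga
Tgfb2: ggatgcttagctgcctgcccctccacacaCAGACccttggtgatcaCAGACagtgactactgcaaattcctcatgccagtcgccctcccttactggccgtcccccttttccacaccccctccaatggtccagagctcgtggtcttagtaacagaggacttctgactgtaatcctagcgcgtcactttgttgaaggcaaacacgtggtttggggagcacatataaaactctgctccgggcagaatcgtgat
Ltbp3: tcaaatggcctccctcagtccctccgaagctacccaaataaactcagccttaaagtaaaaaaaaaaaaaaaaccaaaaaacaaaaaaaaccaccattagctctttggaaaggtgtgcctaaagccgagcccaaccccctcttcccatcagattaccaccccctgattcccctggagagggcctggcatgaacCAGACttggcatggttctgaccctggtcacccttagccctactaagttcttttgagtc
Counting each match, also where matches overlap, the Nbl1 window held 5 GGCGC and 0 CAGAC, the Gdf10 window 3 and 1, the Inhbb window 2 and 0, the Tgfb2 window 0 and 2, and the Ltbp3 window 0 and 1. Of windows not shown for genes that also separated the groups at day 7, those of Bmp4 and Smad3 held 0 GGCGC and 0 CAGAC. Those of Ltbp1, Tgfbr1, Acvr2a, Smad9, Id2 and Acvr1 held at least 1 match. GC content was 77.6% for Nbl1, 78.8% for Gdf10, 68% for Inhbb, 53.6% for Tgfb2 and 47.2% for Ltbp3. RefSeq entries were matched for 36 of the 52 members, with 42 promoters. CAGAC was in 20 of these 42 promoters (47.6%) against 42.2% of 32851 promoters of the same length, and GGCGC in 26 (61.9%) against 32.0%, which is a count of letters and not of bound sites. GGCGC holds only G and C, and the 32851 promoters were not matched to the members in GC content. Repeated windows were removed for the members only.

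Measured per kilobase of exon, the pathway RNA of these cells was led by secreted binding proteins and Id genes. The follistatin-like glycoprotein gene Fstl1 averaged 515 CPM per kilobase over 11 libraries, Id3 averaged 504, the BMP-binding protein gene Nbl1 (DAN) 225 and Twsg1, which modulates the binding of BMP by chordin, 86.7. Fstl1 and Id3 did not differ beyond their spread, since Fstl1 ran from 736 to 3486 CPM and Id3 from 646 to 1417 CPM between libraries. Their order turned between groups: per kilobase Fstl1 averaged 439 and 366 CPM in sham at day 7 and day 14 against 606 and 564 for Id3, and 574 and 630 CPM in PNX against 409 and 458 for Id3. Id1 (76.2 CPM per kilobase) and Id2 (58.7) came next, followed by Bmp4 (51.4), Tgfb3 (44.6), the latent TGF-beta binding protein gene Ltbp1 (44.3) and the type II receptor gene Tgfbr2 (42.8), neighbours whose library ranges overlapped.

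**Figure D1:**
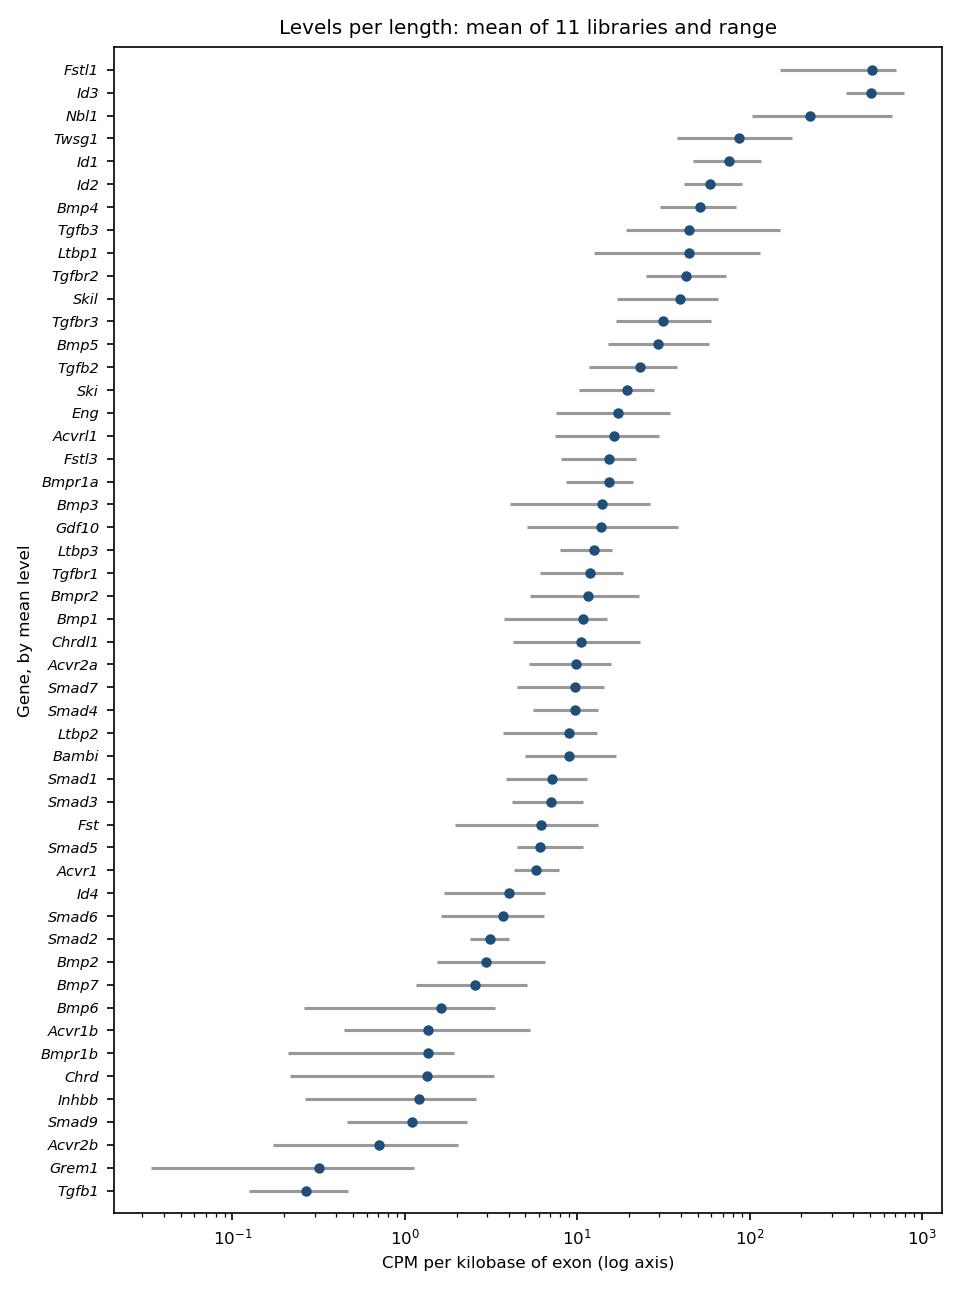
Level of each of the 50 reported genes in CPM per kilobase of exon on a log axis, with points for the mean of 11 libraries and grey lines from the lowest to the highest library. Fstl1 and Id3 lie above 500 CPM per kilobase, and Tgfb1 is lowest with a mean of 0.268.

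Among the TGF-beta ligands Tgfb3 (44.6 CPM per kilobase) and Tgfb2 (23.2) carried nearly all counts, whereas Tgfb1 averaged 0.268 with 2 to 12 counts per library. The annotation used for counting is not given in the sources used here, so whether the row of Tgfb1 covers the whole gene is unknown. At 0.626 to 2.36 CPM per library, Tgfb1 overlapped the range of the olfactory and vomeronasal receptor genes. Bmp4 (51.4), Bmp5 (29.5), the antagonistic ligand Bmp3 (14.0) and its relative Gdf10 (13.7) led the BMP and GDF ligands on the same per-length scale. Bmp2 (2.98), Bmp7 (2.56), Bmp6 (1.63) and Inhbb, which encodes the beta B subunit of activin and inhibin (1.21), were lower.

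Both arms of the pathway had receptor RNA. Per kilobase, the type II receptors ran from Tgfbr2 (42.8 CPM per kilobase) through the BMP receptor Bmpr2 (11.6) and the activin receptor Acvr2a (9.88) to Acvr2b (0.708). The type I receptors were Acvrl1 (16.4), Bmpr1a (15.2), Tgfbr1 (11.8), Acvr1 (5.77), Acvr1b (1.36) and Bmpr1b (1.36). The co-receptors betaglycan (Tgfbr3) and endoglin (Eng) averaged 31.6 and 17.3, and the pseudoreceptor Bambi, which lacks a kinase domain, 8.94. Smad4 (9.70) stood above the receptor-activated Smads, among which Smad1 (7.18) and Smad3 (7.09) were nearly level, and the inhibitory Smad7 (9.76) stood above Smad6 (3.71).

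Single libraries stood at the extremes for many of these genes. Sham day 7 replicate 3 had the highest CPM of all 11 libraries for 18 of 50 genes. Sham day 14 replicate 1, the library of lowest total count, had the lowest for 18 of 50. The shares over all genes are not given here. The same libraries had the highest and the lowest mesenchymal marker sum, at 31701 and 11686 CPM. Averaged over those 13 markers, log2(CPM + 1) was 10.09 and 8.67 in them and 9.35 to 9.83 in the others. Both had 0 Y-linked counts, as had PNX day 14 replicates 2 and 3. What part these traits had in the extremes was not tested. The median coefficient of variation within a group was 35.3% in sham at day 7, 23.9% in PNX at day 7, 34.2% in sham at day 14 and 21.3% in PNX at day 14. Smad2 varied least across the 11 libraries (21.1 to 35.4 CPM), and the BMP antagonist gremlin 1 (Grem1) most (0.140 to 4.70 CPM, 1 to 17 counts).

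**Figure D2:**
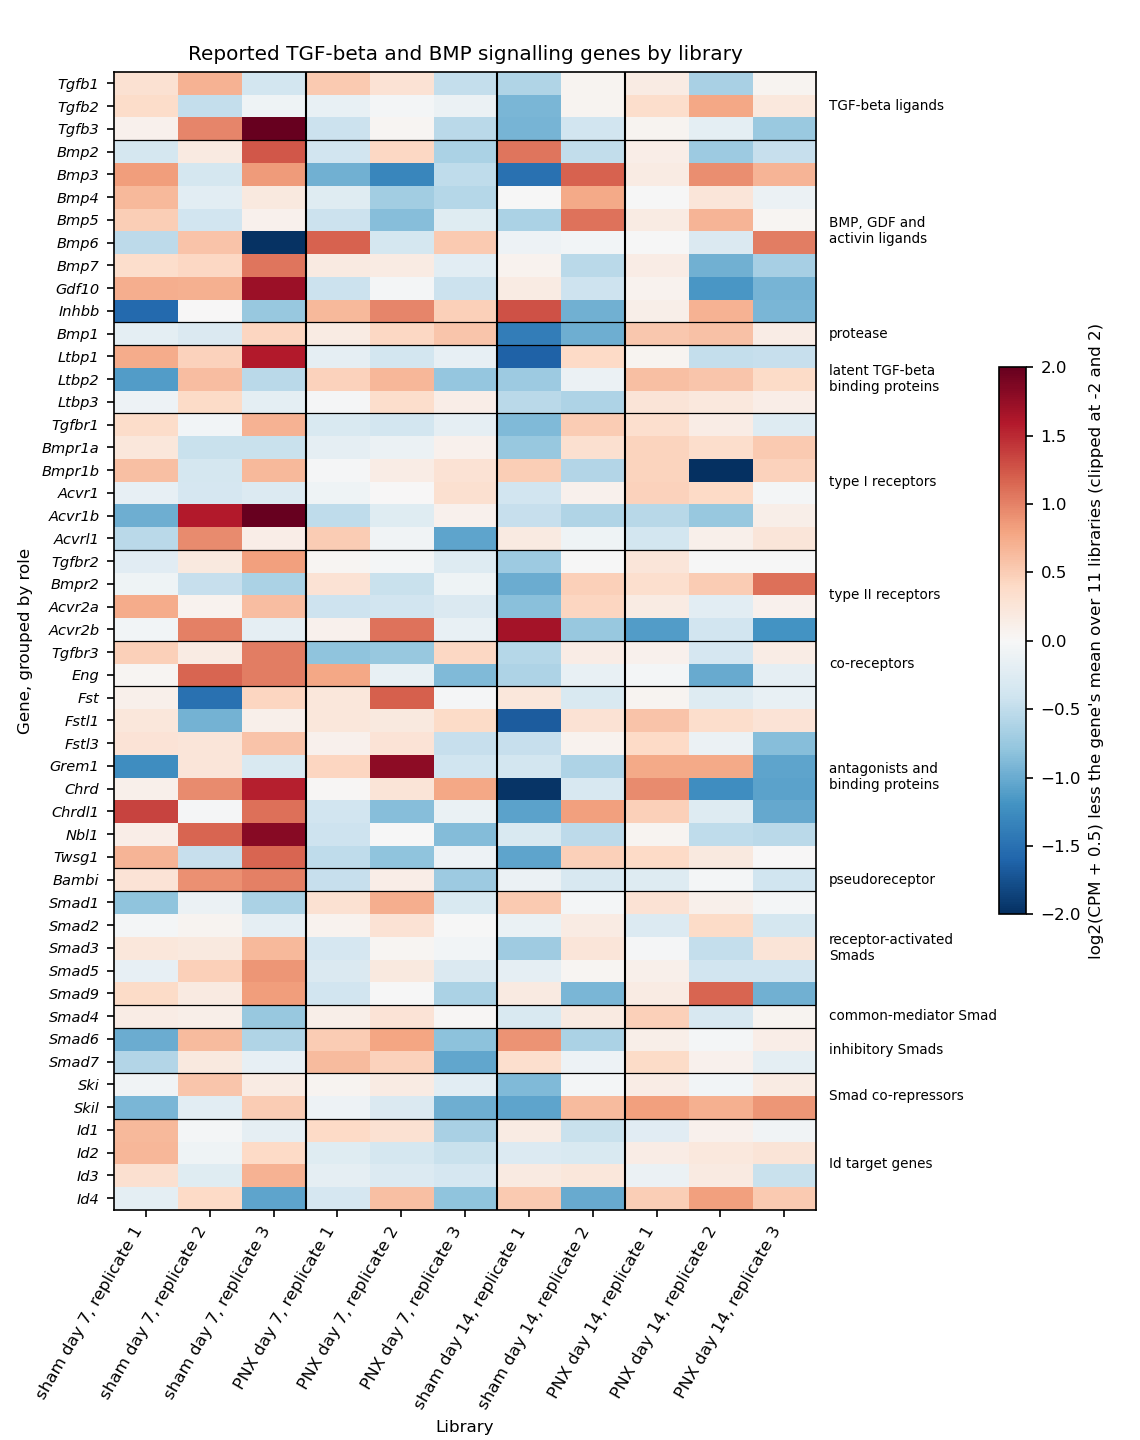
Heatmap of 50 genes (rows, by role) in 11 libraries (columns, by group), coloured by log2(CPM + 0.5) less the mean of the gene over all libraries. Sham day 7 replicate 3 is red for many rows, among them Tgfb3, Nbl1 and Ltbp1, and sham day 14 replicate 1 is blue for many, among them Bmp1 and Ltbp1.

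The comparison of PNX with sham at day 7 addresses the early response to loss of lung tissue. No gene of the pathway passed an adjusted p of 0.05 in edgeR's quasi-likelihood test (0 of 50, against 0.0375% of all genes tested), and the smallest adjusted p was 0.107, for Nbl1. At an unadjusted p under 0.05, 13 of 50 were lower after PNX and 2 were higher, against 8.07% and 4.66% of all genes tested. DESeq2 called 3 genes lower (Tgfb3, Gdf10 and Nbl1), with 1.88% of all genes called, and limma voom with sample weights called 8 lower (those 3 with Bmp3, Ltbp1, Acvr2a, Tgfbr3 and Bambi), with 5.82% of all genes called. The fitted change was below 0 for 32 of 50 genes, where 48.3% of all genes did so, with a median log2 fold change of -0.38 against 0.03 over all genes tested. All PNX libraries lay below all sham libraries for 14 genes, where 9.57% of all genes did so, and above them for 2, Inhbb and the type I receptor Acvr1, where 9.95% did.

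Ligand RNA at day 7 stood lower after PNX for Tgfb2, Tgfb3 and 6 of 8 BMP, GDF and activin ligands by the sign of the fitted change, of which 4 had an unadjusted p under 0.05 (Tgfb3, Bmp3, Bmp4, Gdf10). Tgfb3 stood at 131, 243 and 509 CPM in the sham libraries and at 91.9, 128 and 85.2 CPM in the PNX libraries. The groups did not overlap, and sham replicate 3 stood far above the other two sham libraries. Its log2 fold change was -1.54 (SE 0.42, adjusted p = 0.131), and -0.88 without sham day 7 replicate 3. Tgfb3 (chr12:86056745-86079041 in build mm10 by GENCODE M21, minus strand) overlaps Ttll5 on the opposite strand, and 9 of the 52 genes overlap another protein-coding gene. Since the strand setting of the counting is not given in the sources used here, reads of such pairs cannot be told apart.

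Gdf10 (chr14:33923587-33937983, plus strand), a distant BMP relative close to Bmp3, stood at 101, 100.1 and 199 CPM in sham and at 44.9, 59.1 and 45.0 CPM in PNX at day 7. Every PNX library was below every sham library, and its log2 fold change was -1.43 (SE 0.39, adjusted p = 0.121). Bmp3 stood at 153, 67.3 and 156 CPM in sham and at 43.7, 34.3 and 59.9 CPM in PNX, again without overlap. Bmp4, the most abundant BMP ligand per length, stood at 174, 95.3 and 126 CPM in sham and at 93.1, 68.0 and 74.2 CPM in PNX, a narrow separation in which the lowest sham and the highest PNX library nearly met.

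Ligands on the other side were of low abundance. Inhbb (chr1:119415465-119422248, minus strand) stood at 1.12, 4.29 and 2.31 CPM in sham and at 6.95, 8.84 and 6.15 CPM in PNX at day 7, with a log2 fold change of 1.52 (SE 0.69, adjusted p = 0.365). The PNX libraries were all above sham, although the gene had 8 to 48 counts per library. Bmp6 stood at 3.65, 8.36 and 1.01 CPM in sham and at 13.1, 4.14 and 8.07 CPM in PNX. The groups overlapped, and the log2 fold change was 0.99 (SE 0.64, adjusted p = 0.591), moving to 1.82 without sham day 7 replicate 2.

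Among extracellular antagonists Nbl1 (chr4:139082284-139092993, minus strand) had the smallest p at day 7. It stood at 423, 864 and 1356 CPM in sham and at 289, 381 and 209 CPM in PNX, with a log2 fold change of -1.59 (SE 0.41, adjusted p = 0.107). The lowest sham library was only slightly above the highest PNX library, and the highest sham library was over 3 times the lowest. Over the alternatives its log2 fold change ran from -1.92 to -1.09 and its adjusted p from 0.0061 to 0.652. For each library, the deviation of genes from their mean over the 11 libraries was rank correlated with their GC content. This correlation was -0.12, 0.44 and 0.22 in sham replicates 1, 2 and 3 of day 7. In PNX replicates 1, 2 and 3 of day 7 it was 0.09, 0.20 and -0.16. With a GC offset the log2 fold change of Nbl1 at day 7 was -1.11. Whether GC content had a part in the values of Nbl1 was not tested.

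Other antagonists split. Chrdl1 (chordin-like 1, a BMP antagonist) stood at 156, 59.8 and 132 CPM in sham and at 46.8, 33.7 and 55.5 CPM in PNX at day 7, and Twsg1 at 648, 293 and 908 CPM in sham against 283, 231 and 378 CPM in PNX. Chrdl1 separated the groups, whereas for Twsg1 1 PNX library exceeded the lowest sham library. The activin antagonist follistatin (Fst) stood at 28.2, 8.999 and 35.1 CPM in sham and at 30.7, 60.2 and 25.8 CPM in PNX, with a log2 fold change of 0.67 (SE 0.43, adjusted p = 0.584) that turned to -0.18 without the 3 libraries of highest background. Fstl1, the most abundant member, stood at 2741, 1221 and 2512 CPM in sham and at 2737, 2684 and 3043 CPM in PNX, where 2 of 3 sham libraries were close to the PNX libraries.

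Among genes acting at the membrane the smallest p at day 7 was that of Bambi, a decoy receptor that dampens TGF-beta signalling. Bambi stood at 51.0, 79.7 and 85.0 CPM in sham and at 30.7, 46.4 and 25.4 CPM in PNX, with no overlap and a log2 fold change of -1.08 (SE 0.32, adjusted p = 0.153). Tgfbr3 stood at 269, 218 and 392 CPM in sham and at 110, 115 and 259 CPM in PNX, and PNX replicate 3 lay among the sham libraries. Acvr1b, the type I activin receptor, which is named here after its values were seen, stood at 1.96, 13.9 and 23.4 CPM in sham and at 2.88, 3.59 and 4.61 CPM in PNX. Sham replicate 1 was below every PNX library for Acvr1b.

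Other genes also separated the groups at day 7, of which Acvr2a, Tgfbr1 and Acvr1 are named after their values were seen. Ltbp1, the latent TGF-beta binding protein of highest level, stood at 685, 564 and 1229 CPM in sham and at 360, 318 and 363 CPM in PNX. The activin receptor Acvr2a stood at 89.6, 56.1 and 82.6 CPM in sham and at 39.8, 40.9 and 43.7 CPM in PNX, so that the PNX libraries were close to each other and below sham. The TGF-beta type I receptor Tgfbr1 stood at 95.3, 71.3 and 120 CPM in sham and at 59.7, 57.2 and 65.5 CPM in PNX. Acvr1, a type I receptor for BMP ligands, stood at 24.3, 21.6 and 22.4 CPM in sham and at 25.6, 27.3 and 34.4 CPM in PNX, the only type I receptor whose PNX libraries were all above sham.

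Smads and Id genes at day 7 showed small differences. Smad1, which carries BMP signals, stood at 24.3, 39.4 and 27.6 CPM in sham and at 52.9, 71.5 and 34.6 CPM in PNX, with a log2 fold change of 0.80 (SE 0.33, adjusted p = 0.314). PNX replicate 3 lay between sham libraries for Smad1. Id2 stood at 221, 132 and 184 CPM in sham and at 117, 109 and 102 CPM in PNX, without overlap. Id3 stood at 1095, 746 and 1417 CPM in sham and at 775, 726 and 699 CPM in PNX, and PNX replicate 1 exceeded the lowest sham library. Smad3, of the TGF-beta arm, stood at 44.9, 43.5 and 59.7 CPM in sham and at 30.0, 39.0 and 36.8 CPM in PNX, whereas Smad2, of the same arm, stood at 26.4, 28.1 and 23.7 CPM and at 28.3, 32.9 and 26.9 CPM. Smad3 separated the groups and Smad2 did not. Smad4, the shared partner, stood at 38.8, 38.4 and 20.5 CPM in sham and at 38.0, 42.5 and 35.8 CPM in PNX, groups that overlapped.

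**Figure D3:**
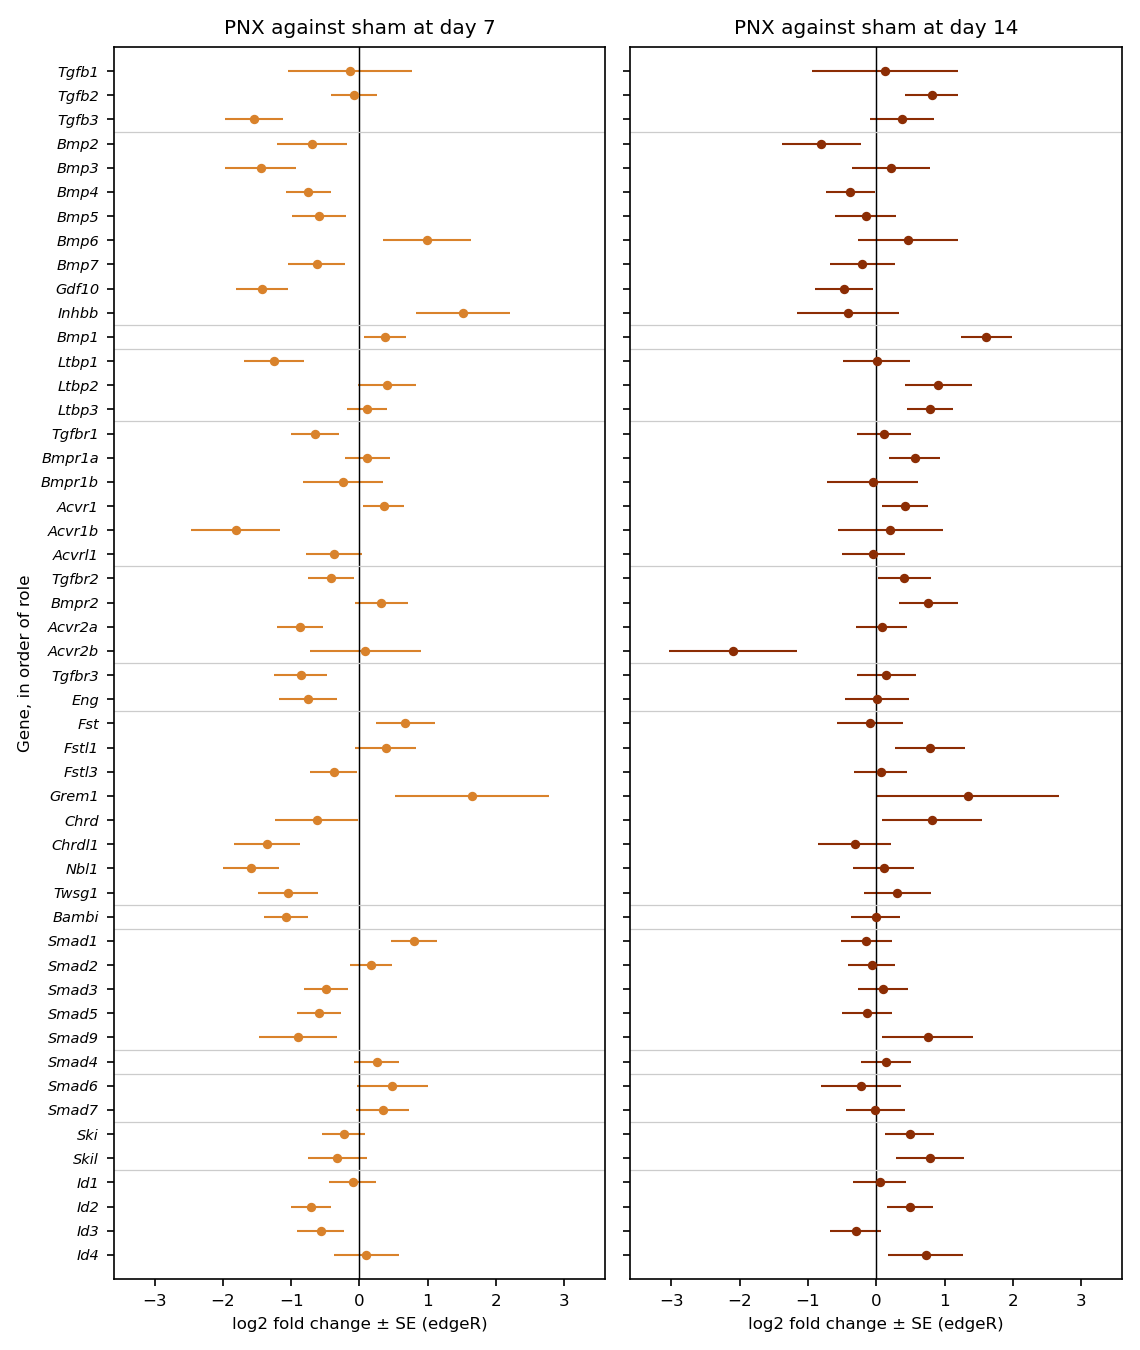
Log2 fold change of PNX against sham with its standard error from edgeR, for 50 genes in order of role, at day 7 (left) and day 14 (right). At day 7, 32 of 50 points lie below 0 and at day 14, 18 of 50 (26 of 50 when libraries are scaled by total counts in place of TMM), and no gene passed an adjusted p of 0.05 at either day.

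Single libraries moved these counts at day 7. The 13 genes lower at an unadjusted p under 0.05 became 7 without sham day 7 replicate 3, where 3.46% of all genes were lower. They became 7 with the log share of reads on olfactory and vomeronasal receptor genes as a covariate, where 6.98% were. With the presence of Y-linked counts as the covariate they became 11, where 7.04% were. Leaving out any other library of day 7 gave 9 to 15, where 5.53% to 9.42% of all genes were lower.

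At day 14 the genes of smallest p that stood higher after PNX were the protease Bmp1, the latent TGF-beta binding protein Ltbp3 and the ligand Tgfb2. No gene of the pathway passed an adjusted p of 0.05 in edgeR (0 of 50, against 0.00625% of all genes tested), and 3 were higher (Bmp1, Ltbp3, Tgfb2) and 1 lower (Acvr2b) at an unadjusted p under 0.05, against 3.19% and 3.63% of all genes tested. DESeq2 called 1, Bmp1, with 0.469% of all genes called, and limma voom called 0 of the 50 and 0.0% of all genes. The fitted change was above 0 for 32 of 50 genes, where 45.1% of all genes did so, with a median log2 fold change of 0.11 against -0.07 over all genes tested, and above 0 for 24 of 50 with a median of -0.01 when libraries were scaled by total counts. All PNX libraries lay above both sham libraries for 8 genes, where 9.57% of all genes did so, and below them for none, where 8.28% did.

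Bmp1 (chr14:70474558-70520234, minus strand), which despite its name is the metalloprotease that trims procollagens and cleaves chordin, stood at 33.5 and 44.4 CPM in sham and at 128, 133 and 98.0 CPM in PNX. The lowest PNX library was above 2 times the highest sham library, and the log2 fold change was 1.61 (SE 0.37, adjusted p = 0.128). Over the alternatives the log2 fold change of Bmp1 at day 14 ran from 1.42 to 1.98 and its adjusted p from 0.0026 to 0.596. At day 7 Bmp1 stood at 77.1, 71.8 and 118 CPM in sham and at 99.3, 118 and 130 CPM in PNX, groups that overlapped.

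Latent TGF-beta binding proteins hold the inactive ligand complex in the matrix, except Ltbp2, which belongs to the family without binding latent TGF-beta. Ltbp3 stood at 76.1 and 71.8 CPM in sham and at 133, 128 and 121 CPM in PNX at day 14, with a log2 fold change of 0.78 (SE 0.33, adjusted p = 0.691). Both groups were tight and did not overlap. Ltbp2 stood at 40.6 and 61.7 CPM in sham and at 103, 98.8 and 87.9 CPM in PNX, with a log2 fold change of 0.91 (SE 0.49, adjusted p = 0.747) and no overlap. Ltbp1 stood at 133 and 539 CPM in sham and at 425, 292 and 298 CPM in PNX, so that the sham libraries enclosed the PNX libraries.

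Tgfb2 stood at 68.0 and 134 CPM in sham and at 164, 221 and 149 CPM in PNX at day 14. Its log2 fold change was 0.81 (SE 0.39, adjusted p = 0.728), and 1.54 without sham day 14 replicate 2, the sham library closer to PNX. Tgfb3 stood at 64.7 and 94.8 CPM in sham and at 129, 108 and 74.0 CPM in PNX, groups that overlapped.

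The genes of smallest p that stood lower after PNX at day 14 were Acvr2b, Bmp2, Gdf10 and Bmp4. Acvr2b, a type II activin receptor, stood at 8.04 and 1.10 CPM in sham and at 0.744, 1.57 and 0.673 CPM in PNX, with 3 to 24 counts per library. Its log2 fold change was -2.10 (SE 0.94, adjusted p = 0.706) and -0.12 without sham day 14 replicate 1, which alone was high. Bmp2 followed the same library, at 20.4 and 6.57 CPM in sham and at 10.4, 5.48 and 6.73 CPM in PNX. Its log2 fold change of -0.81 (SE 0.58, adjusted p = 0.817) turned to 0.19 without sham day 14 replicate 1. Gdf10 stood at 68.4 and 45.4 CPM in sham and at 63.8, 26.8 and 31.6 CPM in PNX (log2 fold change -0.48, SE 0.42, adjusted p = 0.839), and Bmp4 at 110 and 187 CPM in sham and at 110, 131 and 101 CPM in PNX (log2 fold change -0.38, SE 0.36, adjusted p = 0.849). Neither separated the groups. The change of Bmp4 turned to 0.20 without sham day 14 replicate 2, whereas that of Gdf10 stayed below 0 under all 24 alternatives (-0.94 to -0.13).

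Further genes whose PNX libraries were all above sham at day 14 were Bmpr1a, Tgfbr2, Skil and Id2, of which Bmpr1a and Id2 are named after their values were seen. Bmpr1a, the main type I receptor of BMP2 and BMP4, stood at 55.0 and 116 CPM in sham and at 127, 119 and 134 CPM in PNX. Id2 stood at 115 and 113 CPM in sham and at 155, 161 and 167 CPM in PNX, opposite in order to day 7, where its sham libraries were higher. Smad4 stood at 28.5 and 39.8 CPM in sham and at 48.9, 28.2 and 36.5 CPM in PNX, which overlapped.

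The 2 sham libraries of day 14 set the limit of these values. Leaving out sham day 14 replicate 2 leaves 1 sham library at day 14. The median log2 fold change of the 50 genes was then 0.63 in place of 0.11. Over all genes tested it was 0.002 in place of -0.07.

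**Figure D4:**
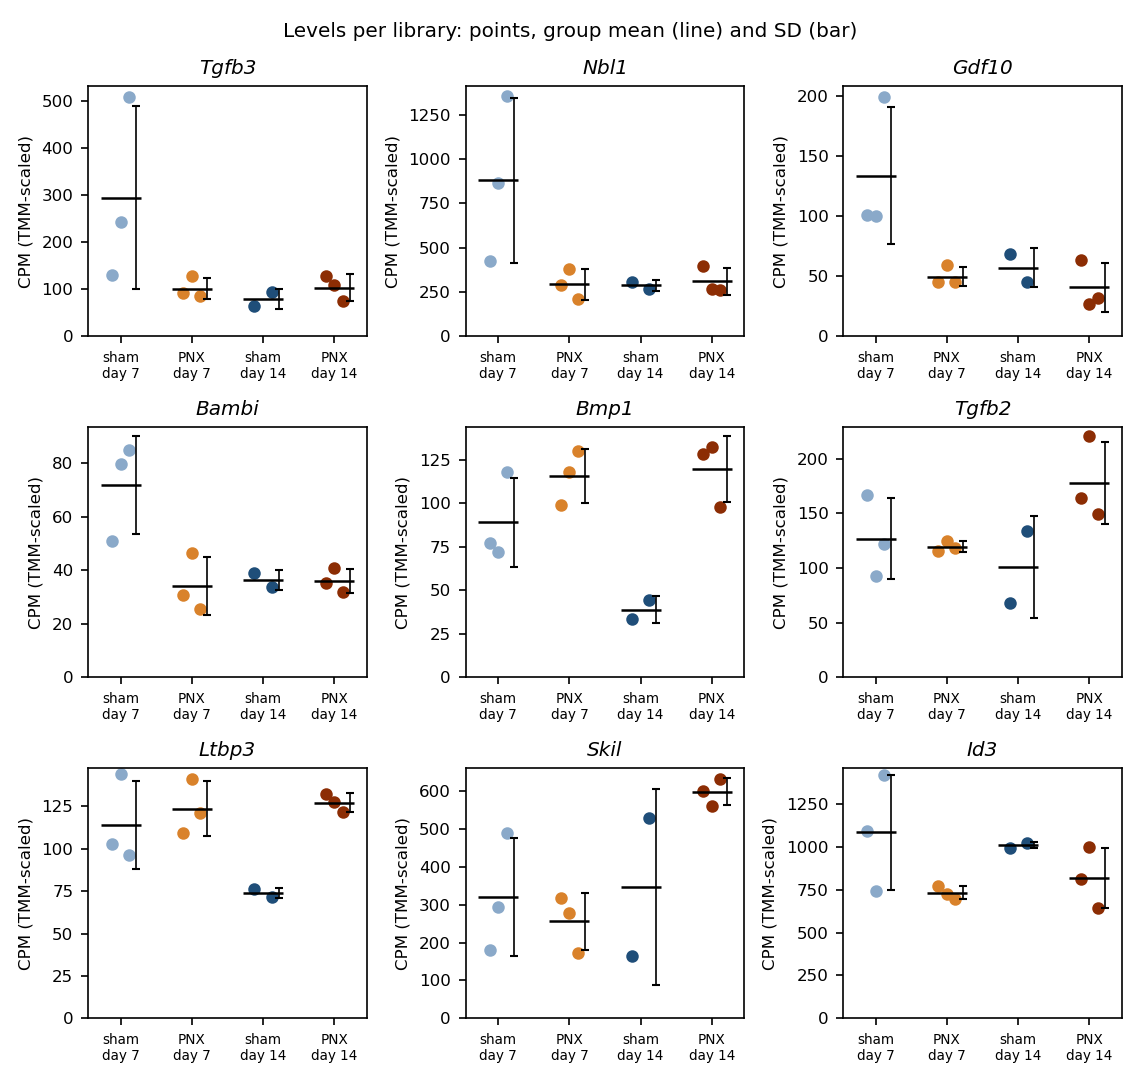
CPM per library (points) for 9 genes in the 4 groups, with the group mean (line) and SD (bar). The sham libraries of day 7 are spread and high for Tgfb3, Nbl1, Gdf10 and Bambi, and both sham libraries of day 14 lie below the PNX libraries for Bmp1, Tgfb2, Ltbp3 and Skil.

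Averaged over both days, 1 gene was higher (Bmp1) and 5 were lower (Bmp4, Gdf10, Chrdl1, Nbl1, Bambi) after PNX at an unadjusted p under 0.05, against 3.92% and 6.37% of all genes tested, and 0 of 50 passed an adjusted p of 0.05 in edgeR against 0.194% of all genes. DESeq2 called 1 (Bmp1), with 1.31% of all genes called, and limma voom 0, with 0.0312% called. Bmp1 had a mean log2 fold change of 1.00 (SE 0.24, adjusted p = 0.092), and over the alternatives its adjusted p ran from 0.0042 to 0.320. Gdf10, with means of 133 ± 57.0 CPM (SD, n = 3) in sham and 49.7 ± 8.17 (n = 3) in PNX at day 7 and 56.9 ± 16.3 (n = 2) and 40.7 ± 20.1 (n = 3) at day 14, had a mean log2 fold change of -0.95 (SE 0.28, adjusted p = 0.190). The other genes of smallest p were Ltbp3 (0.45, SE 0.22), Ltbp2 (0.66, SE 0.32) and the BMP type II receptor Bmpr2 (0.54, SE 0.29) above 0, and Nbl1 (-0.74, SE 0.30), Chrdl1 (-0.83, SE 0.36) and Bmp4 (-0.57, SE 0.24) below 0. Chrdl1 stood at 28.8 and 108 CPM in sham and at 84.7, 51.0 and 29.8 CPM in PNX at day 14, and its mean log2 fold change was -0.16 without sham day 14 replicate 2.

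Whether the difference between PNX and sham itself differed between days was tested as an interaction. No gene passed an adjusted p of 0.05 (0 of 50 in edgeR, DESeq2 and limma voom, against 0.0%, 0.321% and 0.00625% of all genes), and 6 had a more positive difference at day 14 at an unadjusted p under 0.05 (Tgfb3, Bmp3, Bmp1, Nbl1, Bambi, Id2), against 4.17% of all genes, and 0 a more negative one, against 4.6%. The estimate was above 0 for 39 of 50 genes, where 49.5% of all genes did so, with a median of 0.48 against -0.01 over all genes tested. The smallest p were those of Tgfb3 (1.91, SE 0.64, adjusted p = 0.384) and Nbl1 (1.69, SE 0.61, adjusted p = 0.433). Bmp1 had an interaction of 1.24 (SE 0.47) and Id2 of 1.202 (SE 0.45). For Tgfb3 the estimate was 1.26 without sham day 7 replicate 3. By the sign of the fitted changes, 21 genes were lower at day 7 and higher at day 14, 11 were lower at both days, 11 were higher at both and 7 were higher at day 7 and lower at day 14.

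The sham libraries of both days were compared with each other as well. Between sham at day 14 and sham at day 7, 9 genes were lower at an unadjusted p under 0.05 (Tgfb3, Gdf10, Bmp1, Ltbp1, Acvr1b, Eng, Chrd, Nbl1, Bambi) and 0 higher, against 7.94% and 6.33% of all genes tested, and 0 of 50 passed an adjusted p of 0.05 in edgeR against 0.0187% of all genes. DESeq2 called 3 lower (Tgfb3, Bmp1, Nbl1) with 2.81% of all genes called, and limma voom called 0 with 0.00625%. Both sham libraries of day 14 lay below all of day 7 for 13 genes, where 11.8% of all genes did so, and above them for 1, Smad1, where 12.5% did. Tgfb3 had a log2 fold change of -1.88 (SE 0.50, adjusted p = 0.116), Nbl1 of -1.61 (SE 0.47, adjusted p = 0.127), Bmp1 of -1.19 (SE 0.36, adjusted p = 0.133) and Gdf10 of -1.23 (SE 0.44, adjusted p = 0.185). Without sham day 7 replicate 3 the value of Tgfb3 was -1.23, and with a GC offset that of Nbl1 was -0.93. Haematopoietic markers summed to 254 to 1868 CPM in sham at day 7 and to 2744 and 2944 CPM in sham at day 14, without overlap, and their part in these values was not tested. The 3 sham libraries of day 7 enter this comparison and that of PNX with sham at day 7, and the 2 sham libraries of day 14 enter this comparison and that at day 14. Set side by side, the mean CPM of Nbl1 was 881 ± 467 (SD, n = 3) in sham at day 7, 293 ± 86.1 (n = 3) in PNX at day 7, 288 ± 30.05 (n = 2) in sham at day 14 and 310 ± 75.2 (n = 3) in PNX at day 14, so that the mean of sham at day 7 was above the other three.

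After PNX, 2 genes were higher at day 14 than at day 7 at an unadjusted p under 0.05 (Bmp3, Skil) and 0 lower, against 3.72% and 3.13% of all genes tested, and 0 of 50 passed an adjusted p of 0.05 in edgeR, where 0.0% of all genes did. DESeq2 called 0 of the 50 with 0.226% of all genes called, and limma voom called 1, Bmp3, with 1.09%. Pericyte and smooth muscle markers summed to 2115 to 2480 CPM in PNX at day 7 and to 2639 to 3492 CPM in PNX at day 14. Averaged over the markers, log2(CPM + 1) overlapped, at 5.86 to 6.17 at day 7 and 5.85 to 6.30 at day 14. Epithelial markers summed to 1121 to 2760 CPM at day 7 and to 8082 to 18126 CPM at day 14. Their averages were 4.15 to 5.15 and 5.28 to 5.98. Haematopoietic markers summed to 407 to 1187 CPM and to 1766 to 2398 CPM, with averages that overlapped (2.75 to 3.32 and 3.05 to 3.18). The part of any of these markers in the values after PNX was not tested. Bmp3 stood at 43.7, 34.3 and 59.9 CPM at day 7 and at 95.8, 163 and 137 CPM at day 14, with no overlap and a log2 fold change of 1.52 (SE 0.52, adjusted p = 0.675) that was 0.85 with the background covariate. Skil (SnoN; chr3:31095058-31122577, plus strand), a Smad co-repressor that TGF-beta signalling is known to induce after first degrading the protein, stood at 319, 280 and 173 CPM at day 7 and at 601.5, 562 and 633 CPM at day 14. The libraries of day 14 were close to each other and all above those of day 7, and the log2 fold change was 1.22 (SE 0.44, adjusted p = 0.702). In sham, Skil stood at 181, 295 and 489 CPM at day 7 and at 165 and 530 CPM at day 14, a wide spread in which the upper libraries came near the PNX libraries of day 14. Bmp5 stood at 81.9, 60.8 and 92.8 CPM at day 7 and at 123, 176 and 113 CPM at day 14 after PNX (log2 fold change 0.80, SE 0.40), and Bmpr2 at 234, 140 and 180 CPM and at 243, 272 and 411 CPM (log2 fold change 0.74, SE 0.38). All libraries of day 14 lay above those of day 7 for 10 genes and below for 1, Acvr2b, where 9.02% and 9.08% of all genes did so.

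Receptors and Smads that endothelial cells are known to use varied between libraries within groups. Acvrl1, the ALK1 receptor of BMP9 in endothelium, stood at 44.9, 127 and 72.3 CPM in sham and at 94.1, 62.4 and 31.5 CPM in PNX at day 7, and at 74.7 and 62.1 CPM in sham and 51.0, 70.3 and 77.8 CPM in PNX at day 14. The summed endothelial markers stood at 401, 1348 and 379 CPM and at 2125, 897 and 247 CPM in the same libraries of day 7, and at 1089 and 717 CPM and 691, 1050 and 1435 CPM at day 14. PNX replicate 3 was lowest of the day 7 libraries in both Acvrl1 and the marker sum, but the order of the other day 7 libraries differed: PNX replicate 1 had the highest marker sum and sham replicate 2 the highest Acvrl1. The libraries of day 14 had the same order in both. All 18 endothelial markers had counts in every library. Eng stood at 64.2, 140 and 127 CPM in sham and at 107, 56.1 and 33.7 CPM in PNX at day 7. Smad7, an inhibitory Smad, stood at 27.9, 48.0 and 37.3 CPM in sham and at 65.1, 58.3 and 20.1 CPM in PNX at day 7, and at 53.0 and 39.1 CPM in sham and 54.9, 44.8 and 36.8 CPM in PNX at day 14. Its groups overlapped at both days, with the lowest value of Smad7 in PNX day 7 replicate 3. Smad6 ranged from 5.19 to 20.4 CPM, Bmp6 from 1.01 to 13.1 CPM and Id1 from 54.6 to 135 CPM. The part of endothelial RNA in the values of Acvrl1, Eng, Smad6, Smad7, Bmp6 and Id1 was not tested.

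The remaining abundant receptor and target genes overlapped or separated narrowly. Tgfbr2, which binds TGF-beta directly, stood at 290, 390 and 601 CPM in sham and at 347, 329 and 283 CPM in PNX at day 7, and at 204 and 336 CPM in sham and at 400.3, 336 and 339 CPM in PNX at day 14. The sham and PNX libraries of Tgfbr2 overlapped at day 7 and were separated by under 1 CPM at day 14. Tgfbr3 at day 14 stood at 131 and 214 CPM in sham and at 204, 154 and 215 CPM in PNX, and Fstl1 at 736 and 2858 CPM in sham and at 3486, 2976 and 2831 CPM in PNX. For Fstl1 the value of sham day 14 replicate 1 stood far below all others. Id3 at day 14 stood at 997 and 1024 CPM in sham and at 813, 999 and 646 CPM in PNX, and Smad1 at 62.0 and 41.9 CPM in sham and at 52.5, 46.2 and 41.9 CPM in PNX. Bambi at day 14 stood at 38.9 and 33.7 CPM in sham and at 35.2, 41.0 and 32.1 CPM in PNX, which overlapped fully.

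Of 69 other genes of the pathway, among them further ligands, integrins that free latent TGF-beta, fibrillins, enhancers of procollagen cleavage and ubiquitin ligases, 57 were tested. At an unadjusted p under 0.05, 2 were higher and 7 lower after PNX at day 7, 2 higher and 1 lower at day 14, and 6 higher and 4 lower in the mean of both days. The shares of all genes tested were 4.66% and 8.07% at day 7, 3.19% and 3.63% at day 14, and 3.92% and 6.37% in the mean. None passed an adjusted p of 0.05 in edgeR, and their median log2 fold change was -0.02 at day 7 and 0.17 at day 14, against 0.03 and -0.07 over all genes tested. Ltbp4, a latent TGF-beta binding protein of elastic fibres, had the smallest p at day 7 with 1295 ± 881 CPM in sham and 250 ± 25.0 CPM in PNX (SD, n = 3 each; log2 fold change -2.37, SE 0.56, adjusted p = 0.091). The sham libraries of Ltbp4 were thus widely spread and the PNX libraries close together. Pcolce2, which enhances the cleavage of procollagen by Bmp1, averaged 514 ± 56.5 CPM in sham and 234 ± 10.6 CPM in PNX at day 7 (log2 fold change -1.14, SE 0.31, adjusted p = 0.123). Lrrc32 (GARP), which tethers latent TGF-beta to the cell surface, averaged 110 ± 81.6 and 32.1 ± 10.9 CPM (log2 fold change -1.78, SE 0.53, adjusted p = 0.153).

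At day 14 the genes of smallest p in that list were Itgav, Inhba and Dand5. Itgav, the alpha V integrin subunit that takes part in releasing latent TGF-beta, averaged 76.1 ± 21.3 CPM (SD, n = 2) in sham and 164 ± 14.4 CPM (n = 3) in PNX (log2 fold change 1.10, SE 0.36, adjusted p = 0.478). Inhba, the beta A subunit of activin, averaged 9.88 ± 4.96 and 27.97 ± 5.20 CPM (log2 fold change 1.47, SE 0.51, adjusted p = 0.546). The BMP and Nodal antagonist Dand5 averaged 8.33 ± 1.97 and 3.52 ± 1.14 CPM (log2 fold change -1.22, SE 0.52, adjusted p = 0.691). In the mean of both days Inhba had a log2 fold change of 1.10 (SE 0.34, adjusted p = 0.203), Fbn2, a fibrillin of developing tissue, 2.36 (SE 0.76, adjusted p = 0.267) and Pcolce2 -0.82 (SE 0.23, adjusted p = 0.155).

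Of 16 known TGF-beta target genes tested, 3 were higher and 1 lower at an unadjusted p under 0.05 at day 7, 1 was higher at day 14, and 0 passed an adjusted p of 0.05 at either day. Of all genes tested 4.66% were higher and 8.07% lower at day 7, and 3.19% were higher at day 14. The median log2 fold change of these targets was 0.11 at day 7 and 0.49 at day 14, against 0.03 and -0.07 over all genes tested. The matrix protein gene Tgfbi averaged 145 ± 33.9 CPM in sham and 75.0 ± 19.2 CPM in PNX at day 7 (SD, n = 3 each; log2 fold change -0.96, SE 0.33, adjusted p = 0.212), whereas the matricellular gene Postn averaged 133 ± 101 and 291 ± 41.6 CPM (log2 fold change 1.13, SE 0.44, adjusted p = 0.273) and the Smad co-repressor Tgif1 24.7 ± 5.57 and 47.5 ± 16.9 CPM (log2 fold change 0.94, SE 0.34, adjusted p = 0.226). Fibronectin (Fn1) averaged 547 ± 255 CPM in sham and 1055 ± 92.8 CPM in PNX at day 14 (SD, n = 2 and n = 3; log2 fold change 0.95, SE 0.41, adjusted p = 0.691). Smooth muscle actin (Acta2) averaged 997 ± 160.4 and 1705 ± 252 CPM at day 14 (log2 fold change 0.77, SE 0.40, adjusted p = 0.747) and is itself among the smooth muscle markers summed above, and Col1a1 761 ± 483 and 1731 ± 348 CPM (log2 fold change 1.19, SE 0.60, adjusted p = 0.747).

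BMP targets beyond the Id genes were sparse: of 11 listed, 9 were tested, 1 was lower (Atoh8) at an unadjusted p under 0.05 at day 7 and 0 were past it at day 14. Of all genes tested 8.07% were lower and 4.66% higher at day 7, and 3.63% lower and 3.19% higher at day 14. Atoh8, a transcription factor gene induced by BMP signalling, averaged 29.2 ± 13.4 CPM in sham and 10.4 ± 3.31 CPM in PNX at day 7 (SD, n = 3 each; log2 fold change -1.50, SE 0.42, adjusted p = 0.132).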

How the data were processed

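Read counts per gene symbol were deposited by the authors as whole numbers in 11 columns. The genome build was mm10 and bcl2fastq 2.20.0.422 was used, per the submitters' processing notes; the aligner, counting tool, annotation and strand setting are not given in the sources used here. Per the labels' protocols, a low-input library kit was used. Groups came from the labels.

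The test was edgeR's robust quasi-likelihood test (edgeR 4.0.16, R 4.3.3) with TMM factors. Its filterByExpr function left 16011 of 24411 symbols, the 4 groups each had a mean, and all 11 libraries entered with 7 residual degrees of freedom. Adjusted p is Benjamini-Hochberg across the 16011 genes with a threshold of 0.05, from edgeR where no tool is named, and two-sided. CPM were scaled by TMM factors; for the rule of 1 CPM in 3 libraries and for the receptor genes used as background they are shares of total counts. Values per kilobase used the union of exons in GENCODE M21; 98.5% of symbols were matched. Nog passed the filter of the test without meeting the CPM rule, had no unadjusted p under 0.05 in any contrast and is left out of the counts. Precision is limited by 2 or 3 libraries per group; the square root of the common dispersion was 0.442.

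The members, gene lists and tests were chosen with earlier results of these data known. Values in every library are given for members past the threshold, for the 4 of smallest p in each direction in each PNX against sham contrast, for the 4 of smallest p in the other contrasts and for the highest per-length level of each role. Further members given with values in a group or day that this rule does not cover, such as Twsg1, Acvr1b, Acvr2a, Tgfbr1, Smad3 and Eng, were named after their values were seen. From the other lists, the genes named are the 3 of smallest p per contrast, of which some are left out.

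Alternatives were DESeq2 1.42.0, limma 3.58.1 voom with sample weights, RLE factors, total counts, no filter, a filter of 1 CPM in 3 libraries, the replicate number as a block, only the groups compared, leaving out 3 libraries with high background, covariates for background and for Y-linked counts, a GC offset (lowess span 0.5 on 9670 genes), that offset with the block, and leaving out each library. The test was also run on simulated counts with planted changes, and its outcome is not given here. These counts held no extreme library, background reads or GC trend, so the run does not bear on those features of the data.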

Additional observations from a re-analysis of the deposited data

How the results depend on the processing

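Under the main settings 0 of 50 genes passed an adjusted p of 0.05 in each of 6 comparisons. For PNX against sham at day 7 the count was 3 with DESeq2 and 8 with limma voom, and 0 to 3 when each library was left out, with 3 (Tgfb3, Acvr1b, Nbl1) without sham day 7 replicate 1. At day 14 it was 1 (Bmp1) with DESeq2 and 1 with the background covariate, and 0 whichever library was left out. For the mean of both days it was 1 (Bmp1) with DESeq2, with total counts, with the background covariate and with the GC offset, and 0 with any library left out. For the interaction it was 0 with DESeq2 and with limma voom. For day 14 against day 7 it was 1 (Bmp3) after PNX with limma voom and with only the groups compared. After sham it was 3 with DESeq2 and 3 without sham day 7 replicate 1. A fit without 1 of the sham libraries of day 14 leaves 1 library in that group. Genes it called for the interaction or between sham days are not counted here. The share of all genes called when a library was left out is not given here. The fit of only the groups compared gives no value for the mean and the interaction, which use all groups.

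Of 36 named log2 fold changes under up to 24 alternatives, 824 values kept their direction and side of the threshold, 23 kept their direction and passed it, and 4 changed direction. The 4 were Bmp2 at day 14 (0.22 without the 3 libraries of highest background and 0.19 without sham day 14 replicate 1, with a range of -1.30 to 0.19 when each library was left out), Bmp4 at day 14 (0.20 without sham day 14 replicate 2, range -0.72 to 0.20) and Fst at day 7 (-0.18 without the 3 libraries of highest background); the cause was not tested. Values of 11 of the 36 moved by over 1.5 times under some alternative, and besides those given with the results these were Acvr2b at day 14 (-1.16 with limma voom, -1.14 with the background covariate, -0.08 without the 3 libraries of highest background and -2.81 without sham day 14 replicate 2), Bmp6 at day 7 (2.01 with limma voom and 2.15 without those 3 libraries) and Nbl1 in sham between days (-0.87 with a GC offset plus block). Scaling by total counts moved the median of all genes by 0.19 at day 7, by -0.19 at day 14, by -0.37 in the interaction and by -0.28 between days after PNX; at day 7 the genes of the pathway then had a median of -0.18 against 0.21 over all genes.

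With the replicate number as a block 0 genes passed an adjusted p of 0.05 in any of the 6 comparisons. At day 7, 11 were lower and 1 was higher at an unadjusted p under 0.05 in place of 13 and 2. The shares of all genes tested were 6.28% and 3.81% in place of 8.07% and 4.66%. Same-numbered libraries deviated from their group means with correlations of -0.12, 0.53 and 0.34 at day 7 and 0.10 and 0.18 at day 14. No label states whether the replicate number pairs libraries. Genes such as Tgfb1, Grem1 and Acvr2b, with under 25 counts in every library, allow no statement on a difference at this depth.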
